A study of Homo sapiens with 6 samples.

Results

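The genes described here were 38 genes of tRNA charging, listed by name with earlier results of these data known. The list held 19 cytosolic aminoacyl-tRNA synthetases, 16 mitochondrial ones and the 3 scaffold proteins AIMP1, AIMP2 and EEF1E1. They were 38 of the 62703 genes counted, and all 38 were among the 17901 genes that passed the expression filter and were tested. Poly(A) RNA was sequenced across the full transcriptome in 22Rv1 cells, a human prostate cancer line resistant to the antiandrogen enzalutamide. The control cells (siCtrl, n = 3) received 25 pmol of a pool of small interfering RNAs without a target, and the knockdown cells (siMED12, n = 3) the same amount of a pool against MED12. Transfection followed 24 h after seeding, the medium was replaced 6 h later, and cells were harvested on day 3. Both groups shared the transfection reagent and the medium, and all libraries came from a single cell line and a single siRNA pool per group. The study asked how MED12 loss changes gene expression in these cells. MED12 is a subunit of the kinase module of Mediator, the complex that links transcription factors to RNA polymerase II.

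Aminoacyl-tRNA synthetases join each amino acid to the tRNAs that carry it to the ribosome. The cytosol and the mitochondrion mostly use separate sets of enzymes, all encoded in the nucleus, although GARS1 and KARS1 serve both compartments. In the cytosol several enzymes are held together with AIMP1, AIMP2 and EEF1E1 in the multi-synthetase complex, while the mitochondrial enzymes charge the tRNAs used to make the respiratory chain subunits encoded in mitochondrial DNA. Transcription of many cytosolic enzymes is known to respond to ATF4, the transcription factor of the integrated stress response, and to MYC.

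The libraries held 16136699 to 17012788 counts, of which 0.397% to 0.527% fell on the 38 genes, with a median of 1452 counts per gene and library. MED12 had 67.8, 77.7 and 72.6 CPM (counts scaled to TMM-adjusted library sizes) in the controls and 23.9, 14.97 and 30.1 CPM after knockdown. By edgeR's quasi-likelihood test this was a log2 fold change of -1.66 (SE 0.23; adjusted p 0.0314), and the adjusted p was between 0.0818 and 0.186 when siCtrl replicate 1, siCtrl replicate 2, siMED12 replicate 1 or siMED12 replicate 2 was left out. The replicate numbers of the labels paired the libraries: deviations from the group means correlated at 0.532, 0.373 and 0.643 between same-numbered libraries and at -0.46 to -0.023 between others. The share of counts from mitochondrially encoded genes followed the number as well, from 4.43% in siCtrl replicate 1 to 10.1% in siMED12 replicate 3. A second fit therefore held the replicate number as a block. Its calls are counted for each class and list, and its adjusted p-values are given for part of the genes. With the block MED12 had a log2 fold change of -1.68 (edgeR adjusted p 1.52e-16). Of markers for other cell types, the immune genes together reached at most 0.244 CPM and the endothelial genes 0.122 CPM, and CD3E was at 0 in all 6 libraries. The fibroblast list summed to 15.6 to 27.7 CPM in siCtrl and 16.3 to 27.1 CPM in siMED12, nearly all of it COL1A1, while COL1A2 was at 0 in 5 libraries. All 9 prostate epithelial markers were detected in every library. They summed to 2784 to 2995 CPM in siCtrl and 2443 to 2600 CPM in siMED12, and this difference moved with the treatment as the enzymes did; its part in the results was not tested. In bulk RNA, fewer cells of a type and less RNA per cell cannot be told apart. The study's methods call its replicates biological, while the labels do not say what a replicate number stands for, and p-values measure the spread between these libraries.

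Promoter sequence was examined because many enzymes of the list are known ATF4 targets. RefSeq windows of 300 bases on GRCh38.p14, from 250 bases before to 50 after an annotated start site, were at hand for 33 of the 38 genes, and LARS1, VARS1, YARS1, AARS2 and VARS2 had none. Both strands were searched for 3 motifs, and no match of one motif overlapped a match of another. The C/EBP-ATF response element bound by ATF4 with C/EBP partners (TGATGNAA) was found in 7 of 16 cytosolic enzyme genes (43.8%): AARS1, CARS1, GARS1, IARS1, MARS1, NARS1 and TARS1. It was in 1 of 14 mitochondrial enzyme genes, YARS2, in 0 of 3 scaffold genes and in 1217 of 27305 genes of all (4.5%). In the promoter counts, all genes means every gene with a window, whether or not it was expressed or tested in these cells. That set was not matched to the enzymes. The stretches around 5 of these matches are printed 5′ to 3′ on the strand of the gene, and those of NARS1 and TARS1 are not printed. Capitals mark the motif or its reverse complement.
AARS1 (chr16:70289654-70289725, minus strand): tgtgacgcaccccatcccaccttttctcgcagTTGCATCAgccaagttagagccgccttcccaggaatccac
CARS1 (chr11:3057416-3057457, minus strand): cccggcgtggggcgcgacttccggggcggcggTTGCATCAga
GARS1 (chr7:30594813-30594884, plus strand): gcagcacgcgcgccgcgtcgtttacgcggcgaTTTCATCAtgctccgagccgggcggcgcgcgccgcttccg
IARS1 (chr9:92293690-92293742, minus strand): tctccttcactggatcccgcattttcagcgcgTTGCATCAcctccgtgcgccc
MARS1 (chr12:57488032-57488075, plus strand): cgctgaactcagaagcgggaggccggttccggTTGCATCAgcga
In AARS1, CARS1, IARS1 and MARS1 the 8 capital letters are identical, and GARS1 differs from them at the base that the motif leaves free. The search fixed every other letter, so the matches could differ only at that base. The matches in CARS1 and MARS1 span the start site, those in GARS1 and IARS1 lie just upstream of it, and that in AARS1 lies farther upstream.

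The E-box bound by MYC and related factors (CACGTG) was in 3 of 14 mitochondrial genes (21.4%), MARS2, EARS2 and CARS2, against 1 of 16 cytosolic genes, IARS1, 1 of 3 scaffold genes, AIMP2, and 8.8% of all genes. The third motif, the ETS core (CCGGAAG), was in 9 of 16 cytosolic and 7 of 14 mitochondrial genes (56.2% and 50.0%), against 12.2% of all genes, and in 1 scaffold gene, EEF1E1. The 3 mitochondrial genes whose transcripts fell in the blocked fit held an E-box (MARS2 and EARS2) or a C/EBP-ATF response element (YARS2), and their stretches are shown for that reason. CARS2, which also holds an E-box, had a log2 fold change of 0.029. MARS2, EARS2 and CARS2 held the ETS core as well, and no link between a motif and a fold change was tested.
MARS2 (chr2:197705326-197705376, plus strand): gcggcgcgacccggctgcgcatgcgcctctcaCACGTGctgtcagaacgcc
EARS2 (chr16:23557343-23557397, minus strand): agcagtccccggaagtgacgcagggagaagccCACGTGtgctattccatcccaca
YARS2 (chr12:32756055-32756126, minus strand): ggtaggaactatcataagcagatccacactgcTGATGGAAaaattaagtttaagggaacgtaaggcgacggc
HARS1 and HARS2 are read in opposite directions, and only 84 bases separate their start sites in RefSeq (140691370 and 140691455 on chromosome 5). The stretch between them, printed on the plus strand, holds an ETS core near each end, in capitals.
HARS1 and HARS2 (chr5:140691371-140691454, plus strand): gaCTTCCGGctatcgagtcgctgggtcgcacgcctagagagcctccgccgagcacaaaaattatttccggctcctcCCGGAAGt
A match of letters is a description of the window and not evidence that a factor was bound there in these cells.

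**Figure D1:**
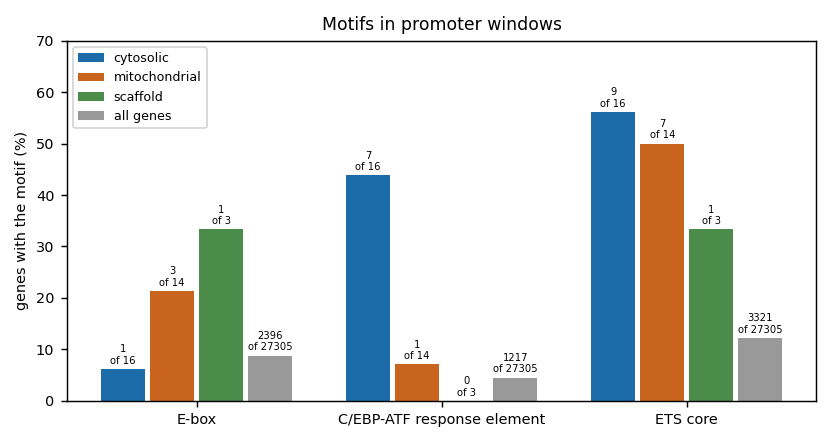
Share of genes (vertical axis, percent) with a match of each motif in their promoter windows, for cytosolic enzymes, mitochondrial enzymes, scaffold proteins and all genes with a window, with the counts above the bars. The C/EBP-ATF response element stands at 43.8% for cytosolic enzymes against 4.5% of all genes, and the ETS core is common in both classes of enzyme.

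Transcripts of the cytosolic enzymes were lower after MED12 knockdown, while the mitochondrial enzymes had a median log2 fold change near 0. All 19 cytosolic enzymes had a log2 fold change below 0, with a median of -0.33 and a range of -0.45 to -0.034 (LARS1, at 0.007 with library size only in place of TMM), beside a median of 0.018 over all 17901 genes, of which 8524 were below 0. The summed level of the cytosolic enzymes was 3886 CPM ± 349.8 (SD, n = 3) in siCtrl and 3186 CPM ± 227 (SD, n = 3) in siMED12, a difference of -17.2%, -19.95% and -16.6% in the 3 pairs. None of the 19 passed an adjusted p of 0.05 in edgeR's test without the block, where 0.413% of all genes were called lower and 0.151% higher. Without the block, 3 (SARS1, WARS1 and YARS1) fell by the Wald test of DESeq2, which called 493 of all 17901 genes lower. By edgeR with no expression filter 1 (YARS1) fell, and 290 of all 34030 genes in that fit were called lower. At an unadjusted p below 0.05 (edgeR), 13 of the 19 were lower, against 7.93% of all genes. With the block, 17 of the 19 fell and none rose, against 16.2% of all genes that fell and 17.1% that rose. The enzymes that did not pass with the block were HARS1 and LARS1. In 18 of the 19 the siMED12 library was below its same-numbered control in all 3 pairs, a pattern shown by 27.0% of all genes. In 10 of the 19 every siMED12 library lay below every siCtrl library, against 10.9% of all genes.

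**Figure D2:**
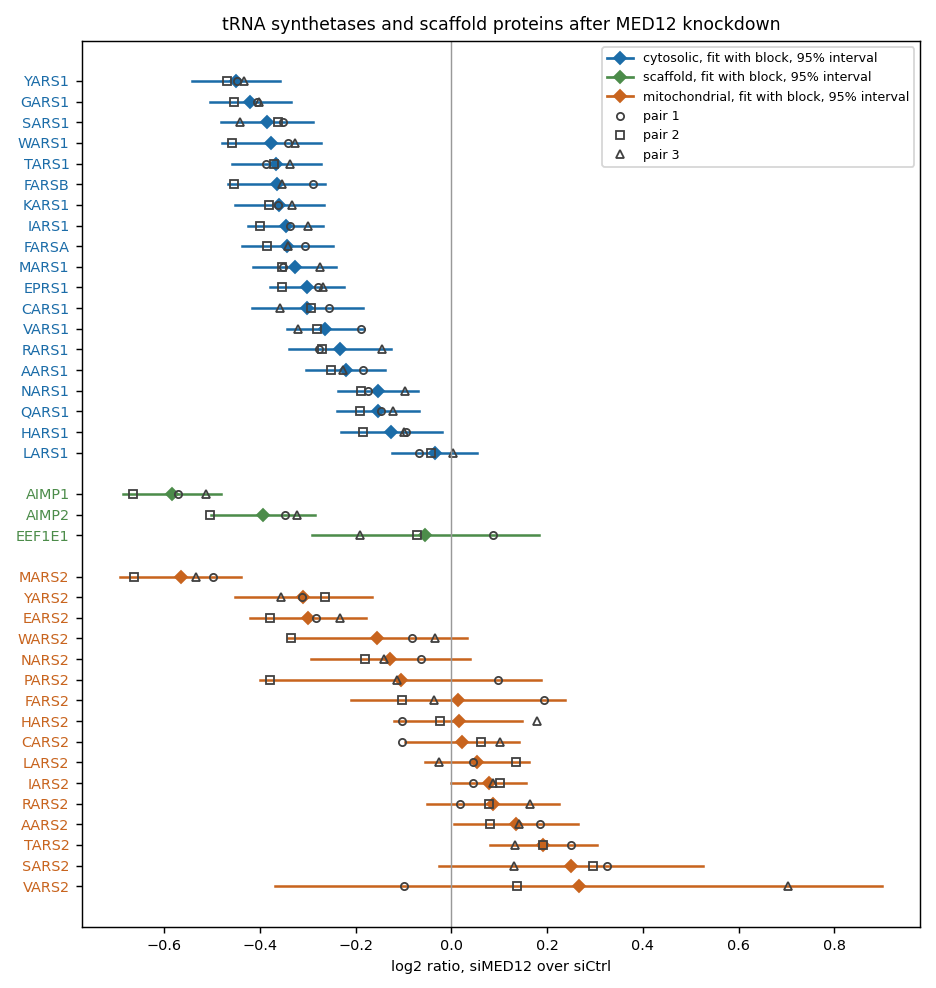
Log2 ratio of siMED12 over siCtrl (horizontal axis) for each of the 38 genes, with open symbols for the 3 pairs of same-numbered libraries and diamonds with bars for the estimate and 95% interval of the fit with the replicate block. The cytosolic enzymes lie left of 0 apart from pair 3 of LARS1, AIMP1 and MARS2 lie farthest left, and the mitochondrial enzymes lie on both sides.

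The lowest fold change among cytosolic enzymes was that of the tyrosine enzyme YARS1 (ENSG00000134684.13; chromosome 1, 32775237 to 32818031, minus strand, GRCh38). YARS1 had 174, 179.8 and 151 CPM in siCtrl replicates 1 to 3 and 127, 129.9 and 112 CPM after knockdown. The groups did not overlap, and the differences within pairs were -26.7%, -27.7% and -25.9%. YARS1 thus had a log2 fold change of -0.45 (SE 0.10), and its adjusted p (edgeR) was 0.1 without the block and 2.6e-10 with it. GARS1, which charges glycine in both compartments, had 252, 265 and 205 CPM in the controls and 190.1, 194 and 155 CPM after knockdown. Replicate 3 was the lowest library of both groups, as it was for 16 of the 19 cytosolic enzymes, and no siMED12 library reached the lowest control. GARS1 had a log2 fold change of -0.42 (SE 0.13), and the adjusted p went from 0.17 to 1.99e-10 with the block. The serine enzyme SARS1 had 139, 150.5 and 132 CPM in the controls and 109, 117 and 97.5 CPM after knockdown, with a log2 fold change of -0.38 and adjusted p-values (edgeR) of 0.13 without and 2.81e-08 with the block. WARS1, the tryptophan enzyme, which interferon is known to induce, had 117, 122 and 102 CPM in the controls and 92.5, 88.7 and 81.6 CPM after knockdown (log2 fold change -0.38). The groups of both genes stood apart, and WARS1 passed with the block as well (edgeR adjusted p 1.72e-07, against 0.136 without). The exons of WARS1 overlap those of other genes on the opposite strand over 10.6% of their length, and whether counting used the strand was not stated.

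For the threonine enzyme TARS1 the spread between replicate numbers was as large as the difference between groups. TARS1 had 181, 182 and 133 CPM in the controls and 139, 141 and 105 CPM after knockdown, so that control replicate 3 lay below siMED12 replicates 1 and 2. Within pairs the differences were nonetheless alike, at -23.5%, -22.7% and -20.8%, and TARS1 fell in the fit with the block (log2 fold change -0.37, edgeR adjusted p 2.87e-08, against 0.318 without). KARS1, the lysine enzyme of the multi-synthetase complex and of mitochondria, had 157, 165 and 139 CPM in the controls and 122, 127 and 110.3 CPM after knockdown. Its groups stood apart, with a log2 fold change of -0.36 (SE 0.10) and adjusted p-values (edgeR) of 0.149 without and 6.01e-08 with the block. The 2 enzymes that serve both compartments thus had values inside the range of the cytosolic class and below every mitochondrial enzyme but MARS2.

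Apart from HARS1 and LARS1, the remaining cytosolic enzymes ran from FARSB (-0.365) and IARS1 (-0.35) to NARS1 (-0.155) and QARS1 (-0.15) on the log2 scale. FARSA and FARSB, the catalytic and the other subunit of the phenylalanine enzyme, had nearly equal log2 fold changes, -0.34 and -0.365. EPRS1, which carries the glutamate and proline activities in a single chain, was at -0.30 and IARS1, the isoleucine enzyme, at -0.35. MARS1 was at -0.33, CARS1 at -0.30, VARS1 at -0.26, RARS1 at -0.23 and AARS1 at -0.22, and all of these fell in the fit with the block. The exons of MARS1 overlap those of other genes, DDIT3 among them, over 13.3% of their length. HARS1 had 85.7, 93.5 and 103 CPM in the controls and 80.2, 82.3 and 96.6 CPM after knockdown. Its values were lower in all 3 pairs, with differences of -6.33%, -11.9% and -6.63%, but the groups overlapped and the adjusted p (edgeR) was 0.0604 with the block. Its exons overlap those of HARS2 and other genes over 8.5% of their length. LARS1, the leucine enzyme that also senses leucine for mTORC1, had 163, 178 and 183 CPM in the controls and 156, 172 and 183 CPM after knockdown. It was the only cytosolic enzyme whose pairs did not all point the same way (-4.59%, -2.86% and 0.186%), and the 95% interval of its log2 fold change with the block was -0.12 to 0.053. LARS1 and HARS1 also differed from most of the class in that replicate 1 rather than replicate 3 was the lowest library of each group, which held for QARS1 too.

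**Figure D3:**
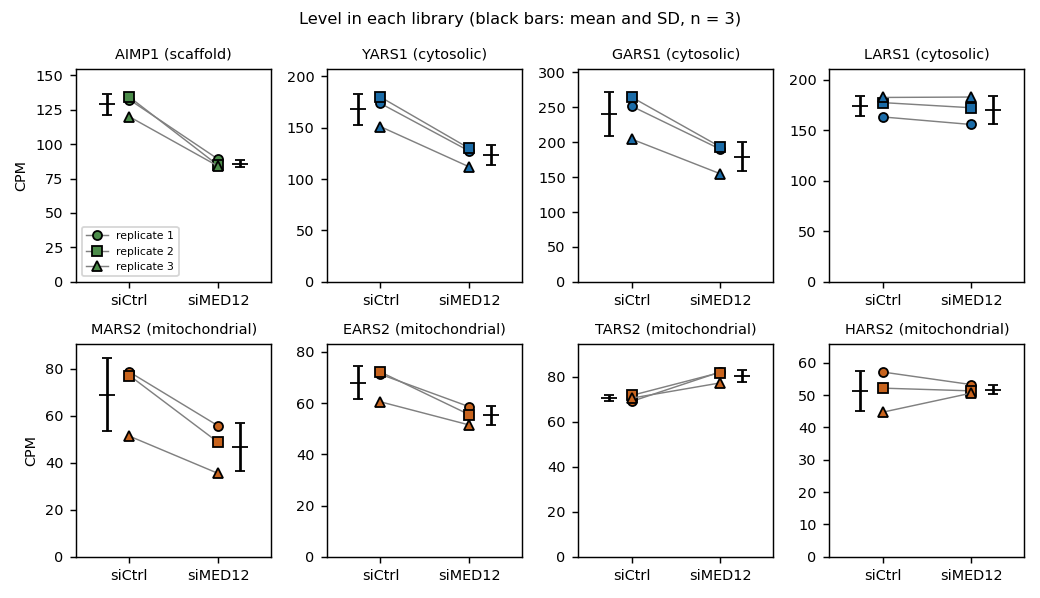
Level (vertical axis, CPM from 0) of 8 genes in each of the 6 libraries, with lines joining libraries of the same replicate number and black bars for the mean and SD of 3 libraries. AIMP1, YARS1, GARS1 and EARS2 have separate groups, MARS2 is lower in every pair although replicate 3 of siCtrl lies below replicate 1 of siMED12, LARS1 and HARS2 overlap, and TARS2 is higher.

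AIMP1 was the only one of the 38 genes called by edgeR's test without the block. AIMP1 (ENSG00000164022.18; chromosome 4, 106315544 to 106349456, plus strand) binds the arginine enzyme within the complex, and a processed form is known as a secreted cytokine. It had 132, 134 and 119.9 CPM in the controls and 89.1, 84.6 and 84 CPM after knockdown, means of 129 CPM ± 7.75 (SD, n = 3) and 85.9 CPM ± 2.79 (SD, n = 3). AIMP1 fell, with differences of -32.7%, -36.9% and -29.9% in the 3 pairs, and the groups stood far apart. This was a log2 fold change of -0.58 (SE 0.088), at adjusted p-values (edgeR) of 0.0417 without and 4.43e-12 with the block. The call without the block was near the threshold: it was lost with library sizes alone in place of TMM (0.0568) and without any single library except siCtrl replicate 3, with adjusted p-values of up to 0.232. AIMP2, the core scaffold that ties the subcomplexes together, had 99.2, 112 and 85.8 CPM in the controls and 77.99, 79.2 and 68.6 CPM after knockdown. Its groups did not overlap either, and it fell in the fit with the block (log2 fold change -0.39, edgeR adjusted p 2.2e-07, against 0.169 without). Over 29.1% of their length the exons of AIMP2 overlap EIF2AK1 on the opposite strand. EEF1E1, which binds the methionine enzyme MARS1, had 13.9, 13.2 and 12.9 CPM in the controls and 14.7, 12.5 and 11.3 CPM after knockdown. These values overlapped and the pairs disagreed in sign (6.27%, -4.90% and -12.3%), with a 95% interval of -0.29 to 0.18 on the log2 scale with the block, and 18.8% of its exon length is shared with a read-through gene on the same strand. Together the scaffold genes summed to 241 CPM ± 20.8 (SD, n = 3) in siCtrl and 174 CPM ± 9.16 (SD, n = 3) in siMED12.

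Of the 16 mitochondrial enzymes 6 had a log2 fold change below 0 and 10 above (FARS2, at 0.006, was at -0.001 with DESeq2 size factors), with a median of 0.02 and a range of -0.565 to 0.29. Their summed level was 972 CPM ± 66.3 (SD, n = 3) in siCtrl and 967 CPM ± 54.95 (SD, n = 3) in siMED12, and the pairs differed by -1.75%, -0.895% and 1.37%. None was called without the block in either direction. At an unadjusted p below 0.05 (edgeR), 2, MARS2 and EARS2, were lower and 0 higher, against 7.93% and 7.65% of all genes. With the block 3 fell (MARS2, YARS2 and EARS2) and 1 rose (TARS2), against 16.2% and 17.1% of all genes, so that the share that fell was near that of all genes. All 3 pairs were below 0 for 5 enzymes and above 0 for 5, beside 27.0% and 30.6% of all genes. Only EARS2 was lower in every siMED12 library than in every control, as were 10.9% of all genes. RARS2, SARS2 and TARS2 were higher in every siMED12 library, a pattern found in 11.2% of all genes.

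MARS2, which charges the mitochondrial initiator tRNA as well as the elongator, had the largest difference of any enzyme. MARS2 (ENSG00000247626.5; chromosome 2, 197705369 to 197708395, plus strand) is a gene with a single exon, and its promoter stretch with the E-box is given with the promoters. It had 78.5, 77.04 and 51.3 CPM in the controls and 55.7, 48.6 and 35.4 CPM after knockdown, and replicate 3 was far below the other libraries in both groups, so that the groups overlapped. The pairs differed by -29.1%, -36.9% and -30.9%. The estimate of -0.565 on the log2 scale (SE 0.21) had an adjusted p (edgeR) of 0.243 without and 1.76e-09 with the block. The glutamate enzyme EARS2 had 71.2, 72.1 and 60.5 CPM in the controls and 58.6, 55.5 and 51.5 CPM after knockdown, with a log2 fold change of -0.30 and adjusted p-values (edgeR) of 0.238 without and 0.000117 with the block. The tyrosine enzyme YARS2 had 48.4, 45.9 and 35.8 CPM in the controls and 38.97, 38.2 and 27.98 CPM after knockdown. Its groups overlapped, each pair was lower (-19.4%, -16.8% and -21.8%), and the adjusted p (edgeR) went from 0.444 to 0.000661 with the block. Its exons share 18.1% of their length with a gene on the opposite strand.

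WARS2 and NARS2, next in order, were lower in every pair by smaller amounts. WARS2, the tryptophan enzyme, had 25.1, 26.2 and 18.4 CPM in the controls and 23.6, 20.8 and 17.96 CPM after knockdown, and NARS2, the asparagine enzyme, had 28.6, 29.1 and 26.2 CPM in the controls and 27.3, 25.7 and 23.8 CPM after knockdown. Both sets of values overlapped, and neither passed with the block (edgeR adjusted p 0.207 and 0.246). HARS2, the neighbour of HARS1, had 57.1, 52.1 and 44.7 CPM in the controls and 53.2, 51.3 and 50.6 CPM after knockdown. Its siMED12 libraries lay within the range of the controls and its pairs moved both ways (-6.81%, -1.62% and 13.2%), with a log2 fold change of 0.011. PARS2, FARS2, CARS2, LARS2, IARS2, RARS2 and AARS2 had log2 fold changes between -0.07 and 0.135, and none of them passed with the block.

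At the upper end stood VARS2 and SARS2, both at low levels. VARS2, the valine enzyme, had only 1.84, 1.33 and 1.77 CPM in the controls and 1.72, 1.46 and 2.88 CPM after knockdown, and as few as 21 counts in a library. Its value rests on siMED12 replicate 3, the highest library, and its log2 fold change of 0.29 (SE 0.35) became -0.048 without it. SARS2, the serine enzyme, had 7.67, 8.48 and 9.20 CPM in the controls and 9.62, 10.4 and 10.1 CPM after knockdown, separate groups with an adjusted p (edgeR) of 0.543 without and 0.163 with the block. Exons of other genes on the same strand cover 63.0% of the exon length of VARS2 and 48.2% of that of SARS2, so counts of both are uncertain. TARS2, the threonine enzyme, was named after its values were seen, as the only one of the 38 genes that rose in the fit with the block. TARS2 had 69.01, 71.7 and 70.5 CPM in the controls and 82.1, 81.9 and 77.2 CPM after knockdown, a rise of 19.0%, 14.2% and 9.62% in the pairs. Its adjusted p (edgeR) was 0.332 without the block, 0.00608 with it and 0.139 with the block when the replicate 1 libraries were left out.

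For 16 combinations of a cytosolic and a mitochondrial enzyme for the same amino acid, the log2 ratios were set against each other within each pair of libraries. The cytosolic log2 ratio was below the mitochondrial one in all 3 pairs for 11 combinations, above it in all 3 for 1 and mixed for 4. The combinations are not independent, since all were read from the same 3 pairs of libraries and FARS2 enters with both FARSA and FARSB. SARS1 and SARS2 lay farthest apart, by -0.68, -0.66 and -0.57 (cytosolic minus mitochondrial log2 ratio), followed by TARS1 and TARS2 with -0.64, -0.56 and -0.47. MARS1 and MARS2 went the other way, with 0.145, 0.31 and 0.26, so that the methionine enzyme of mitochondria was the lower of the pair. EPRS1 and EARS2, both glutamate enzymes, moved nearly together, with differences of 0.004, 0.024 and -0.036. YARS1 and YARS2 both fell in the fit with the block, with differences of -0.14, -0.20 and -0.079. The differences were taken within only 3 pairs of libraries and were not tested, so no p is given for a single combination.

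**Figure D4:**
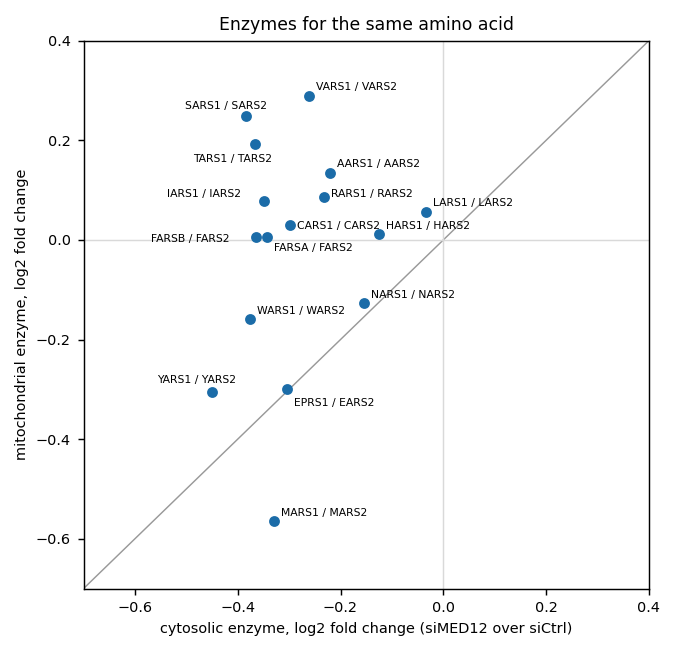
Log2 fold change (siMED12 over siCtrl) of the mitochondrial enzyme (vertical axis) against that of the cytosolic enzyme for the same amino acid (horizontal axis), one point per combination, with the line of equal values. Points above the line have the lower value in the cytosolic enzyme, and MARS1 with MARS2 lies below it.

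Medians of subsets of the cytosolic enzymes lay close together, and differences between subsets were not tested. In the fit with the block 16.2% of all genes were called lower, the share to set beside each count below. The median log2 fold change was -0.30 for the 9 class I enzymes and -0.36 for the 9 class II enzymes, which differ in the fold of their catalytic domain, and 8 of 9 of each fell in the fit with the block. EPRS1, which holds a domain of each kind, was left out of that split. The 7 enzymes of the multi-synthetase complex had a median of -0.30, with 6 of 7 called lower with the block, and the 12 outside it had a median of -0.35, with 11 of 12. Among the 12 enzymes listed as ATF4-responsive from general knowledge the median was -0.34, with 11 called lower with the block, and among the other 7 it was -0.26, with 6. In the promoter windows the C/EBP-ATF response element was in 7 of 10 ATF4-responsive genes and in 0 of 6 others, against 4.5% of all genes with a window. The 7 cytosolic enzymes with the element had log2 fold changes of -0.42 (GARS1) to -0.155 (NARS1), and the 9 with a window but without the element had -0.38 (SARS1) to -0.125 (HARS1). These ranges overlap over most of their length.

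Levels were compared between genes as RPKM, which is CPM divided by transcript length in kilobases, in the siCtrl libraries. Over the canonical transcript the cytosolic enzymes had a median of 73.5 RPKM, the mitochondrial ones 15.1 RPKM and the scaffold proteins 46.5 RPKM. With the length of all annotated exons in place of the canonical transcript these medians were 28.6, 6.48 and 13.9 RPKM. The highest levels were those of EPRS1 (100.3, 113 and 84.4 RPKM over the canonical transcript), GARS1 (103, 109 and 83.97), IARS2 (94.4, 106 and 93.1) and NARS1 (99.5, 104 and 84.6). The libraries of these genes overlapped with their neighbours in the order. GARS1 stood at rank 22 rather than 2 when all 17366 bases of its annotated exons were counted in place of the 2437 of the canonical transcript. IARS2, the isoleucine enzyme of mitochondria, was thus at the level of the highest cytosolic enzymes. Over the canonical transcript it overlapped with its cytosolic counterpart IARS1 (85.5, 97.5 and 79.4 RPKM), but over all annotated exons the means were 83.6 RPKM for IARS2 and 17.5 RPKM for IARS1. Over the canonical transcript CARS2 came next among mitochondrial enzymes (32.3, 36.5 and 39.3 RPKM), separate from IARS2. The lowest by that length were SARS2, PARS2 and VARS2. Over all annotated exons the order differed. CARS2 then had a mean of 6.35 RPKM, below MARS2 (22.8 RPKM) among others, and NARS2 (1.71 RPKM) and RARS2 (2.41 RPKM) lay below SARS2 (2.73 RPKM). VARS2 was the lowest by both lengths. Over the canonical transcript VARS2 had 0.516, 0.372 and 0.494 RPKM, separate from PARS2 just above it (5.66, 3.19 and 2.59). PARS2, the proline enzyme, varied most, relative to its mean, between the libraries of the group. By the same length FARSB was the lowest cytosolic enzyme at 18.2, 19.1 and 16.2 RPKM, within the range of the mitochondrial class. FARSA, with which it forms the phenylalanine enzyme, stood at 87.6, 86.2 and 68.6 RPKM. The canonical transcript of FARSB, at 6761 bases, is the longest of the class, and its level depends on that length. Over all annotated exons FARSB had a mean of 17.8 RPKM and was not the lowest. HARS1 (6.655 RPKM), CARS1 (7.44 RPKM) and LARS1 (8.46 RPKM) were among those below it.

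**Figure D5:**
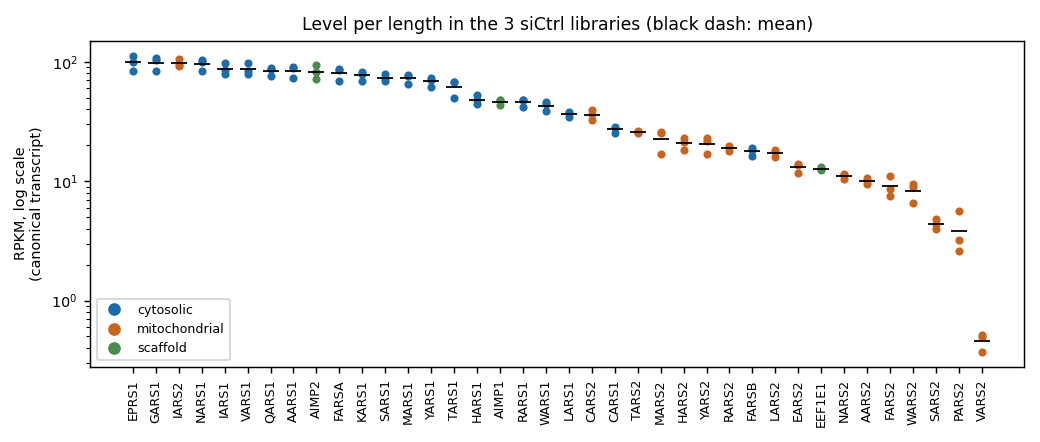
Level per length (vertical axis, RPKM over the canonical transcript, log scale) of the 38 genes in the 3 siCtrl libraries, ordered by the mean, with a black dash for the mean. Cytosolic enzymes fill the upper part, IARS2 lies among them, and VARS2 lies below 1 RPKM.

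Other genes of tRNA charging were taken from a list of 21, none of which was called by edgeR without the block. Of these 17 had a log2 fold change below 0, with a median of -0.072, beside 8524 of all 17901 genes below 0. At an unadjusted p below 0.05 (edgeR), 2 were lower and 1 higher (7.93% and 7.65% of all genes). With the block 3 fell and 1 rose, against 16.2% and 17.1% of all genes, which is no more than the background in either direction. XPOT, the exportin that carries tRNAs out of the nucleus, had 275, 303 and 239 CPM in the controls and 206, 206 and 178 CPM after knockdown. Its groups did not overlap and its log2 fold change of -0.47 lay beside those of the lowest cytosolic enzymes (edgeR adjusted p 0.109, and 1.72e-11 with the block). PTRH2, a peptidyl-tRNA hydrolase, was at -0.37 and GATC, a subunit of the amidotransferase that completes mitochondrial glutaminyl-tRNA, at -0.24 (edgeR adjusted p with the block 0.00171 and 0.00327). SEPSECS, which converts the amino acid on selenocysteine tRNA in its last step, had 26.3, 20.9 and 19.9 CPM in the controls and 32.6, 30.4 and 31.5 CPM after knockdown, and rose in the fit with the block (log2 fold change 0.50, edgeR adjusted p 1.16e-05, against 0.15 without).

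ATF4 and known targets of it were set beside the enzymes as a list of 20 genes, which shares ASNS with the list before. Of these 18 had a log2 fold change below 0, with a median of -0.38, beside 8524 of all 17901 genes below 0. None was called by edgeR without the block. At an unadjusted p below 0.05 (edgeR), 14 were lower and 1 higher, against 7.93% and 7.65% of all genes. With the block 17 fell and 1 rose, against 16.2% and 17.1% of all genes. The smallest p-values without the block were those of ALDH1L2, MTHFD2 and SHMT2, enzymes of mitochondrial folate metabolism. ALDH1L2 had 142, 164 and 128 CPM in the controls and 97.4, 93.1 and 74.7 CPM after knockdown (log2 fold change -0.71, edgeR adjusted p 0.0644, and 5.25e-14 with the block). MTHFD2 was at -0.47 and SHMT2 at -0.39 on the log2 scale, with separate groups in both. VLDLR, a lipoprotein receptor, was the 1 gene that rose with the block (0.42, edgeR adjusted p 0.0153). ATF4 itself, named after its values were seen, had 392, 309 and 225 CPM in the controls and 294, 213 and 173 CPM after knockdown. Replicate 3 was the lowest library in both groups, the groups overlapped, and ATF4 fell in the fit with the block (log2 fold change -0.45, edgeR adjusted p 3.33e-11, against 0.412 without). The lists of ATF4 targets and of enzymes were not tested against each other.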

How the data were processed

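Poly(A) RNA of 6 libraries was measured by strand-specific RNA-seq, and the labels gave each library's group and replicate number. The authors aligned and counted reads with Rsubread against GRCh38.p13 and a Gencode annotation, per the study's methods. How the counting used strand and treated reads with several matches is not given in the sources used here, so genes that overlap others have uncertain values. The deposited counts are raw whole-number read counts per gene. The deposited log2 values are log2 CPM, which edgeR's filter with TMM factors and a prior count set to 2 recovered from the counts within 4.96e-09, so they carry no batch correction.

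Differential expression was tested on the counts with edgeR 4.0.16 in R 4.3.3 (filterByExpr, TMM, quasi-likelihood F-test, two-sided, Benjamini-Hochberg adjustment over 17901 genes, threshold 0.05), with the treatment alone in the design, since the study's methods name edgeR and no block. The study shows a batch-corrected heatmap of these cells without naming the batch, so its own fit may have held one. Standard errors came from the fold change and F. The labels give both groups the numbers 1 to 3. Same-numbered libraries deviated together (correlations 0.532, 0.373 and 0.643), so the numbers were taken to pair the libraries. The procedure was run on simulated counts whose known changes were larger than those of the genes described here. Its outcome is not given and does not show how the procedure performs at the sizes reported. No 2 replicates of a group were duplicates (chi-square per degree of freedom 10.3 to 40.7). Gene positions and lengths came from Gencode release 44, which held 99.97% of the counted genes. Promoter windows came from RefSeq.

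The members and lists were chosen with earlier results of these data known, and the lists were written from general knowledge. Values in every library are given for members called without the block, the scaffold proteins, the 5 lowest and 2 highest of each class by log2 fold change, GARS1, KARS1, HARS1 and HARS2. From the other lists up to 3 genes with the smallest p in each direction are named, and other names were added after their values were seen. Alternatives were DESeq2 1.42.0 (size factors and Wald test), limma-trend 3.58.1, library size only, other filters and thresholds, the replicate block alone or with a loess correction (span 0.5) for GC content and length, and leaving out libraries. The block with other tests and the level over the canonical transcript were added after seeing the data. Values of some genes of the lists are not reported here.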

Additional observations from a re-analysis of the deposited data

How the results depend on the processing

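With the replicate number as a block, which pairs the libraries, the number of cytosolic enzymes called lower went from 0 to 17, and the block gave 17 with library size only, 18 with DESeq2 size factors, 19 with the GC and length correction, and 17 each with the DESeq2 Wald test, limma-trend and edgeR's newer quasi-likelihood method. Without the block the DESeq2 Wald test called 3 (SARS1, WARS1 and YARS1) and a table without a filter 1 (YARS1), while limma-trend called 0. For mitochondrial enzymes the block gave 3 called lower, and 4 with the GC and length correction, which added NARS2. The block gave 1 called higher, TARS2, but 3 with library size only (with AARS2 and IARS2), and 0 with the Wald test. Without each replicate number in turn it was 0 to 1. Scaffold genes called lower were 1 in the unblocked fit, 2 with the block under every alternative, 0 with library size only and at an adjusted p below 0.01, and 0 to 1 without single libraries. Over all genes 27 were called higher and 74 lower, against 31 and 49 with library size only, 34 and 118 with a filter of 1 CPM on the mean, 186 and 290 without a filter, 331 and 493 by the DESeq2 Wald test, 3058 and 2908 with the block, and 0 to 8 and 0 to 37 without single libraries. Library size alone moved the median of all genes from 0.018 to 0.059. The cytosolic median of -0.329 became -0.287 with library size only, -0.286 with the block as well, -0.289 in pair 1 and -0.41 to -0.237 without single libraries. The mitochondrial median of 0.02 became 0.06 with library size only, with or without the block, -0.009 after correcting the blocked fit for GC and length, -0.022 in pair 1, -0.018 to 0.068 without single libraries, and -0.003 to 0.048 without each replicate number in the fit with the block. The scaffold median of -0.397 was -0.504 in pair 2 and -0.493 to -0.297 without single libraries. MED12 stayed at -1.903 to -1.451 without single libraries. Ordered by CPM without a length, 5 of the 10 genes with the highest level over all annotated exons were still among the 10. The sign of small fold changes was not stable: LARS1 was at 0.007 with library size only (0.006 with the block), FARS2 at -0.001 with DESeq2 size factors and with the Wald test and at -0.011 with a filter of 1 CPM, HARS2 at -0.006 with that filter, and LARS2 and RARS2 at -0.062 and -0.02 after that correction. Without single libraries log2 fold changes ran from -0.101 to 0.009 (LARS1), -0.176 to 0.034 (EEF1E1), -0.078 to 0.137 (CARS2), -0.13 to 0.179 (FARS2), -0.081 to 0.075 (HARS2), -0.017 to 0.143 (IARS2), -0.049 to 0.146 (LARS2), -0.67 to 0.309 (PARS2), -0.048 to 0.456 (VARS2), and without each replicate number in the fit with the block from -0.148 to 0.01 (EEF1E1), -0.023 to 0.063 (CARS2), -0.09 to 0.051 (FARS2), -0.063 to 0.058 (HARS2), -0.015 to 0.091 (LARS2). Of 834 values for single genes, 633 kept direction and side of the threshold, 163 passed it only under the alternative, 7 no longer passed it and 31 changed sign. The cause of these differences was not tested. In the fit with the block the intervals of VARS2, PARS2 and SARS2 were the widest among the enzymes.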
